A study of Mus musculus with 2 samples.

Results

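The integrated stress response and the unfolded protein response were described through 10 genes in diabetogenic CD4+ T cells, out of 19938 genes measured with a single-symbol probe set. The genes are *Atf4*, *Atf5*, *Ddit3*, *Xbp1*, *Ppp1r15a*, *Trib3*, *Asns*, *Chac1*, *Sesn2* and *Hspa5*. They were taken as known members of the ATF4, CHOP and XBP1 arms, each through its probe set with the highest mean over both arrays, and all 10 had exactly 1 such probe set. The genes were selected on their levels and log2 ratios in these same arrays being already known, so the differences below are a description and carry no test.

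Array signal came from CD3+CD4+ T cells sorted from the pancreatic lymph node (PLN) 48 hours after in vivo treatment. The treated pool received nondepleting (ND) αCD4 (clone YTS177), and the control pool received clone 2A3, an isotype control Ab of the same rat class without the CD4 specificity. The labels give an age of 8 weeks, and their 1 mg of antibody is written with the isotype control Ab. The paper's methods give a higher range of doses for clone 2A3 than for YTS177, so equal doses are not certain. Both groups were BDC mice, NOD animals whose T cells largely carry 1 transgenic receptor for a β cell antigen (the labels number the clone differently from the paper), and PLN of 3 mice were pooled for a sort. Each condition has 1 array, so differences between mice, sorts and arrays cannot be told apart from treatment, and no p value can be given. In such bulk RNA, fewer cells that express a gene and less of its RNA per cell cannot be told apart either.

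Cells under protein folding stress, amino acid shortage or viral RNA phosphorylate the translation factor eIF2α through 1 of several kinases. General translation then slows, while the mRNA of the transcription factor ATF4 is translated better, and ATF4 switches on genes of amino acid supply, redox control and, with CHOP, of cell death. The unfolded protein response adds the sensors IRE1, which splices the *Xbp1* mRNA to make an active transcription factor, and ATF6, which is cut free from its membrane. Both raise chaperones of the endoplasmic reticulum (ER). Activated T cells use these pathways when amino acid demand and secretion increase. ATF4 is controlled largely by translation and XBP1 by splicing, and the gene-level signal of an array reads neither step.

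The promoters of 5 members hold a DNA motif of these pathways or of the related CREB and ATF factors, and are shown because they include the members with the largest differences. RefSeq sequence of GRCm38.p6 was searched on both strands from 250 bases before to 50 bases after the annotated transcript start, and all 10 members had such a window (11 windows, as *Atf5* has more than 1). The motifs were the C/EBP-ATF response element (CARE, TGATGNAAN), which ATF4 dimers bind, the ER stress element (ERSE, CCAAT and CCACG with 9 bases between them), which ATF6 binds with NF-Y, the core of the unfolded protein response element (UPRE core, TGACGTGG), which XBP1 and ATF6 bind, and the palindromic cyclic AMP response element (CRE, TGACGTCA). The UPRE core and the CRE share their first 6 letters, so a stretch of 8 bases read in 1 direction can match only 1 of them. In the stretches below the match is in capitals.
*Ppp1r15a* (CRE, chr7:45526269-45526518, minus strand): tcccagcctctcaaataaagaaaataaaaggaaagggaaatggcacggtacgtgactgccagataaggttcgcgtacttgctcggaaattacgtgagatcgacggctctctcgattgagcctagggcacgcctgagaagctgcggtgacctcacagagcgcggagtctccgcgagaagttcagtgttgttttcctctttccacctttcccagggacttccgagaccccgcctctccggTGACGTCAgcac
*Asns* (CARE, chr6:7693210-7693459, minus strand): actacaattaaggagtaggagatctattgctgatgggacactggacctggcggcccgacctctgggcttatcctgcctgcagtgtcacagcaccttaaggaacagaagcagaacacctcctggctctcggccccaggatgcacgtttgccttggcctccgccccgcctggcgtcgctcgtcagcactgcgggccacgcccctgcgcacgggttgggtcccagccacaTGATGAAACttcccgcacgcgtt
*Hspa5* (ERSE, chr2:34771840-34772089, plus strand): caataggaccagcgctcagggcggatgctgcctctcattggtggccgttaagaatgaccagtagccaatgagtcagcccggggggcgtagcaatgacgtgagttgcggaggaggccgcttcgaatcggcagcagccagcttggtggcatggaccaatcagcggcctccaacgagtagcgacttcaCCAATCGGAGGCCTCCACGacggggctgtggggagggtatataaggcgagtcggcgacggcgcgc
*Chac1* (CARE on the opposite strand, chr2:119351038-119351066, plus strand): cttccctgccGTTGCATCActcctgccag
*Trib3* (CARE on the opposite strand, chr2:152344029-152344057, minus strand): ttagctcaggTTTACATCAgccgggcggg

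The first 3 stretches are the 250 bases before the transcript start. The CRE of *Ppp1r15a* begins 12 bases before the start, the CARE of *Asns* 23 bases before it and the ERSE of *Hspa5* 65 bases before it. The CARE of *Chac1* begins 194 bases before the start, whereas that of *Trib3* begins 13 bases after it. No match to the 4 motifs was found in the windows of *Atf4*, *Atf5*, *Ddit3*, *Sesn2* and *Xbp1*, which says only that these letters are not there. Over all 32851 promoter windows, CARE was found in 3.95%, CRE in 1.79%, the UPRE core in 0.676% and ERSE in 0.119%. A match is a description of the letters and does not show that a factor binds there.

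**Figure D1:**
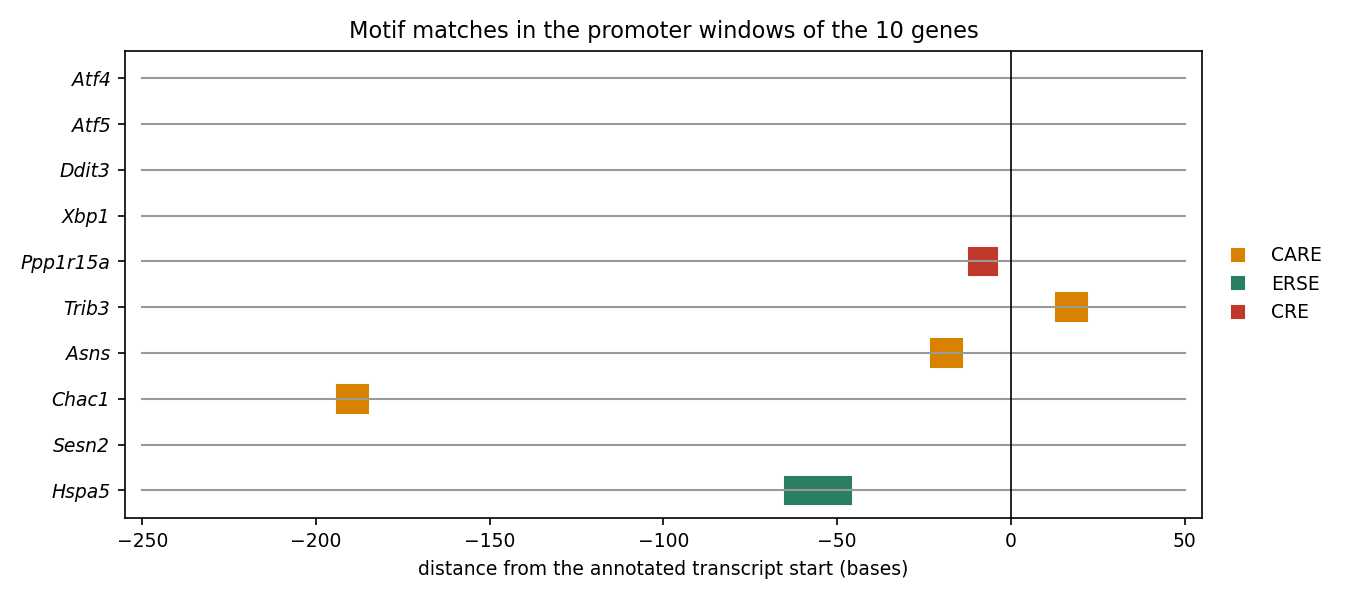
Matches to CARE, ERSE and CRE in the promoter windows of the 10 genes, with distance from the annotated transcript start in bases on the horizontal axis and 1 line per gene (the windows of *Atf5* drawn as 1). Colored boxes span the matched bases, and the 5 genes without a box had no match to any motif searched.

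After ND αCD4, *Ppp1r15a* was higher and *Asns* was lower, while the transcription factors of both responses differed little between the arrays. *Ppp1r15a* was 1.98-fold higher and *Asns* 1.58-fold lower, and the other 8 members differed by less than 1.2-fold. A gene was called higher or lower from 1.5-fold upward, which is a rule of size and not a test. By that rule 1 member was higher, where 28 of 13222 detected genes (0.212%) were, and 1 member was lower, where 133 (1.01%) were. As the members were chosen with this contrast known, nothing is read from these counts. The members nearest to the rule on its other side were *Trib3*, at 1.19-fold higher, and *Hspa5*, at 1.16-fold lower. Of the 10 members, 6 had a log2 ratio (ND αCD4 minus isotype control) above 0 and 4 below 0, with a median of 0.04, against a median of -0.01 over all detected genes. Detection meant a signal in either array over the 95th percentile of 1210 odorant and vomeronasal receptor probe sets, a background of 7.56 in the ND αCD4 array and 7.64 in the isotype control array. All 10 members exceeded it in both arrays.

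**Figure D2:**
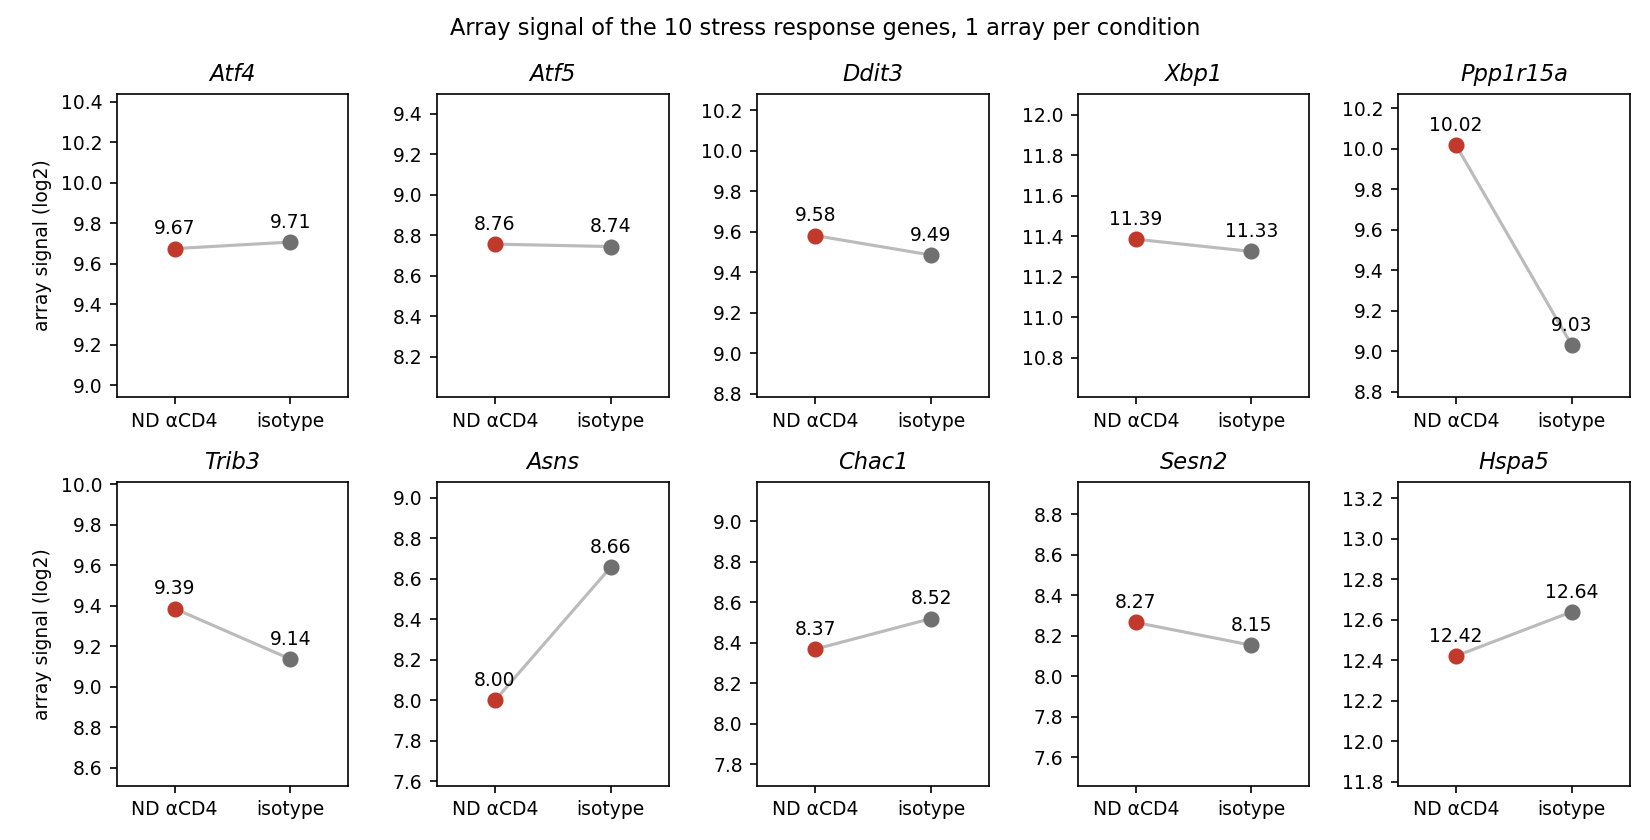
Array signal (log2, vertical axis) of the 10 genes in the ND αCD4 array (red) and the isotype control array (gray), 1 array each. Every panel spans the same range of log2 units around its own mean, so slopes are comparable and heights between genes are not. The line of *Ppp1r15a* is the steepest, with 10.02 in the ND αCD4 array and 9.03 in the isotype control array, and that of *Asns* runs the other way.

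The 4 transcription factor genes were nearly level. *Atf4*, which encodes the central factor of the integrated stress response, had a signal of 9.67 after ND αCD4 and 9.71 after the isotype control Ab on the log2 scale, a log2 ratio of -0.03. *Atf5*, a related factor whose translation is regulated in the same way, had 8.76 after ND αCD4 and 8.74 after the isotype control Ab, a log2 ratio of 0.01. *Ddit3*, which encodes the death-linked factor CHOP, had 9.58 after ND αCD4 and 9.49 after the isotype control Ab, a log2 ratio of 0.10. These differences are small beside those of *Ppp1r15a* and *Asns*. *Xbp1*, the target of IRE1 splicing, had 11.39 after ND αCD4 and 11.33 after the isotype control Ab, a log2 ratio of 0.06. For scale, the SD of log2 ratios within a gene, pooled over the 550 genes with exactly 2 detected probe sets, was 0.09. *Atf4*, *Atf5* and *Xbp1* lay closer to 0 than that. This SD covers probes on the same arrays and not differences between mice. The sign for *Atf5* was not stable, as its log2 ratio was -0.0014 after quantile normalization.

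Of the genes that restrain the response, *Ppp1r15a* stood apart. *Ppp1r15a* encodes GADD34, a phosphatase subunit that dephosphorylates eIF2α and lets translation resume, and it is also an immediate early gene of many stresses. Its signal was 10.02 after ND αCD4 and 9.03 after the isotype control Ab, a log2 ratio of 0.99. Counted from the highest log2 ratio, it ranked 3 of 13222 detected genes. *Trib3*, a pseudokinase that is induced by ATF4 and CHOP and dampens ATF4 activity, had 9.39 after ND αCD4 and 9.14 after the isotype control Ab, a log2 ratio of 0.25 that 96.7% of detected genes lay below. *Ppp1r15b*, which encodes the constitutive counterpart of GADD34, had 10.17 in both arrays. With 2 arrays, likeness to *Ppp1r15a* can be measured only by the log2 ratio. The 3 detected genes nearest to it were *Pdlim4*, a gene of the cytoskeleton, at 0.93, the linker histone gene *H1f2* at 0.92 and *Plac8* at 0.86.

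The metabolic members did not move together. *Asns*, which encodes asparagine synthetase and is a standard ATF4 target, had a signal of 8.00 after ND αCD4 and 8.66 after the isotype control Ab, a log2 ratio of -0.66. It ranked 109 from the lowest of 13222 detected genes. Its level after ND αCD4 lay 0.44 log2 units above background, against 1.01 after the isotype control Ab, a range in which an array tends to understate a difference. *Chac1*, an enzyme that breaks down glutathione, had 8.37 after ND αCD4 and 8.52 after the isotype control Ab, a log2 ratio of -0.15. *Sesn2*, a stress-induced inhibitor of mTORC1, had 8.27 after ND αCD4 and 8.15 after the isotype control Ab, a log2 ratio of 0.11. *Chac1* and *Sesn2* lay within 1 log2 unit of background in both arrays. The 3 members with a CARE match thus lay on both sides of 0, *Trib3* above and *Asns* and *Chac1* below.

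*Hspa5*, which encodes BiP, the main Hsp70 chaperone of the ER and a target of both XBP1 and ATF6, had 12.42 after ND αCD4 and 12.64 after the isotype control Ab. Its log2 ratio of -0.22 lay above that of 8.64% of detected genes, and it was measured far above background in both arrays. For comparison, the middle 95% of detected genes ran from -0.39 to 0.28, and 8 of the 10 members lay inside it, all but *Ppp1r15a* and *Asns*.

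**Figure D3:**
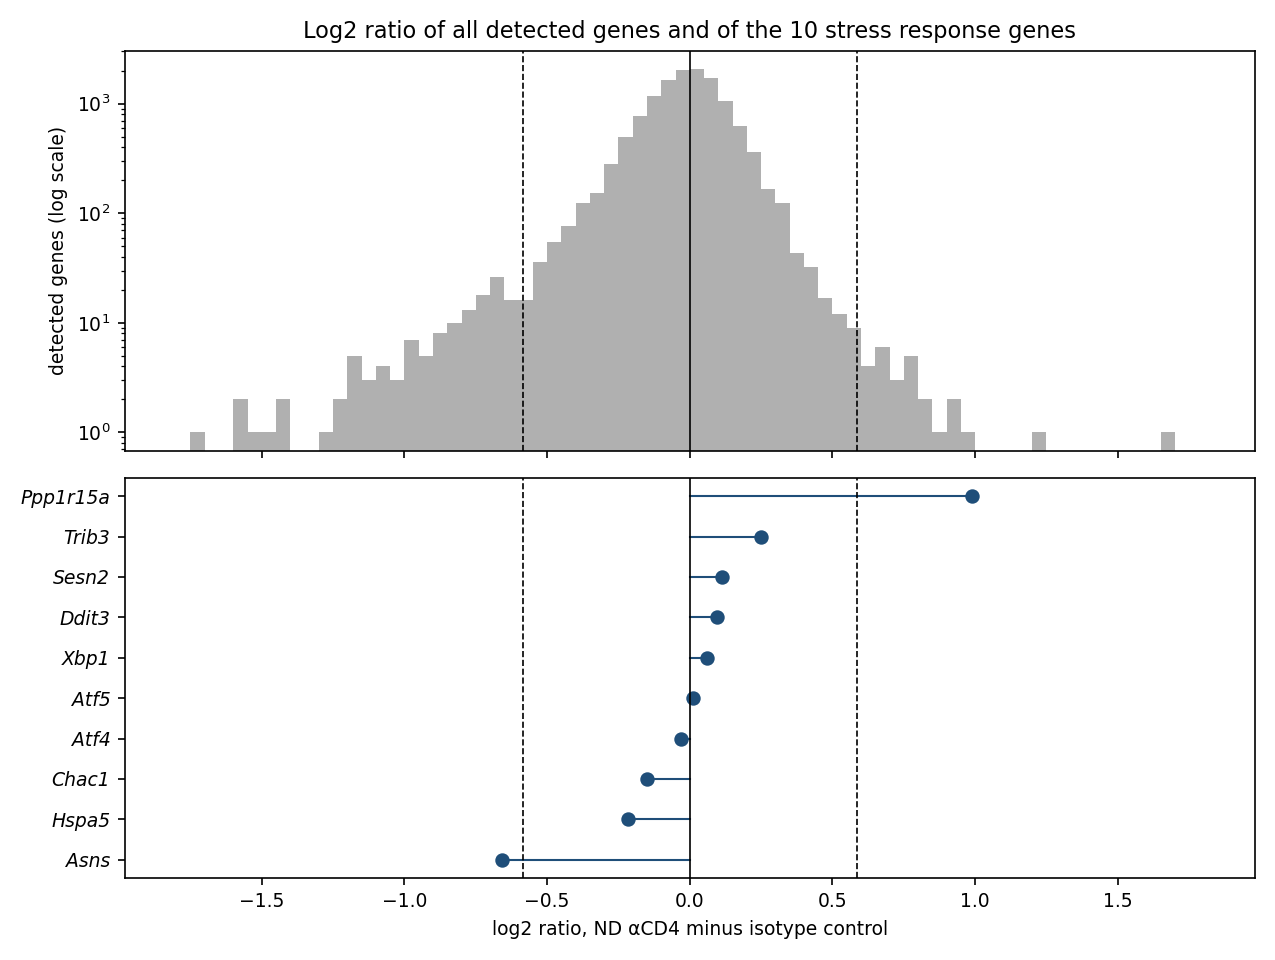
Log2 ratio (ND αCD4 minus isotype control, horizontal axis) of 13222 detected genes as a histogram with a log-scaled count (top) and of the 10 genes, 1 point each (bottom), with 0 as a solid line and the 1.5-fold rule as dashed lines. *Ppp1r15a* at 0.99 and *Asns* at -0.66 lie outside the dashed lines, and the other 8 between -0.22 and 0.25.

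The wider pathways were examined through 7 lists of other genes. Of 125 listed genes, 117 had a probe set that could be used and 110 were detected. By the 1.5-fold rule 0 were higher and 3 lower, where 0.212% of all detected genes were higher and 1.01% lower. The log2 ratio was above 0 for 38 of them and below 0 for 71, with a median of -0.06 beside -0.01 for all detected genes. The 3 lower genes were *Ddit4*, *Slc7a5* and *Psat1*.

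In the list of eIF2 kinases and eIF2 cycle genes, 14 were detected, none passed 1.5-fold and the median log2 ratio was -0.04. *Eif2ak3*, which encodes the ER stress kinase PERK, had a log2 ratio of 0.08 over a signal of 9.92 after the isotype control Ab. *Eif2ak4*, which encodes the amino acid sensor GCN2, had 9.24 after ND αCD4 and 9.22 after the isotype control Ab. These 2 kinases were thus nearly level. *Eif2ak2*, the double-stranded RNA kinase and itself an interferon-induced gene, had 8.85 after ND αCD4 and 9.32 after the isotype control Ab, a log2 ratio of -0.47. *Eif2b3*, a subunit of the exchange factor that recharges eIF2, had a log2 ratio of -0.30.

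The genes of amino acid supply are given beside the whole array, where 52.7% of detected genes had a log2 ratio below 0 and 1.01% were called lower; the difference from it was not tested. Of 14 detected genes of amino acid synthesis and uptake, 11 had a log2 ratio below 0, 2 above 0 and 1 at 0, with a median of -0.18, and 2 were at least 1.5-fold lower. The median depended on the filter, at -0.13 over genes detected in both arrays and -0.10 with no filter, as *Slc6a9*, a glycine transporter, was above background only after the isotype control Ab and 5 measured genes were below background in both arrays. *Psat1*, an enzyme of serine synthesis, had 9.95 after ND αCD4 and 10.62 after the isotype control Ab, and was 1.59-fold lower. *Slc7a5*, the large neutral amino acid transporter, had 10.96 after ND αCD4 and 11.64 after the isotype control Ab, and was 1.60-fold lower. *Psat1* and *Slc7a5* therefore stood at about the same log2 ratio as *Asns*. The tRNA synthetase genes, which charge tRNAs with amino acids and include many ATF4 targets, had a log2 ratio below 0 in 10 of 11 detected members. Their median was -0.24 and none passed 1.5-fold. The lowest were *Mars1*, for methionine, at -0.32 and *Wars*, for tryptophan, at -0.30.

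Among other regulators and secreted factors linked to ATF4, 15 were detected, 9 with a log2 ratio above 0 and 6 below 0. The 1 gene past the rule was *Ddit4*, which encodes REDD1, an inhibitor of mTORC1. It had 11.06 after ND αCD4 and 11.77 after the isotype control Ab, and was 1.63-fold lower. *Sesn2* and *Ddit4*, both inhibitors of mTORC1, thus lay on opposite sides of 0. Of 7 detected genes linked to CHOP, in cell death and ER oxidation, none passed 1.5-fold and the median was 0.07. *Tnfrsf10b*, which encodes the death receptor DR5, had a log2 ratio of -0.24 and *Pmaip1*, which encodes NOXA, one of 0.20.

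The IRE1 and XBP1 arm had 28 detected genes, of which none passed 1.5-fold, 12 had a log2 ratio above 0 and 16 below 0, with a median of -0.01. *Ern1*, which encodes IRE1α, had 9.40 after ND αCD4 and 9.20 after the isotype control Ab, a log2 ratio of 0.20. *Dnajb9*, a cochaperone of BiP and a standard XBP1 target, was the highest of the arm, with 10.99 after ND αCD4 and 10.48 after the isotype control Ab, a log2 ratio of 0.51. Most of the arm did not follow it, and *Spcs3*, a subunit of signal peptidase, was at -0.34. In the ATF6 arm and the ER chaperones, 21 genes were detected, none passed 1.5-fold and 15 had a log2 ratio below 0, with a median of -0.07. Over all detected genes, 52.7% had a log2 ratio below 0, and by the rule 0.212% were higher and 1.01% lower. The differences of both arms from these shares were not tested. *Sdf2l1*, a partner of BiP, was at -0.42 and *Pdia6*, a protein disulfide isomerase, at -0.39, both further below 0 than *Hspa5*. *Atf6* itself was at -0.18.

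Promoter motifs were also counted for the listed genes. Of 92 genes with a promoter window in the table, 14 held a CARE, or 12.5% of their 112 windows, against 3.95% of all windows. Of these 14, 11 were detected, 5 with a log2 ratio above 0 and 6 below 0. ERSE was found for 9 listed genes, or 8.04% of windows against 0.119% of all, and 6 of the 9 had a log2 ratio below 0, with a median of -0.13. The ERSE genes included *Pdia6*. Over all 17 detected genes with an ERSE the median was 0. The UPRE core was found for 3 listed genes, all 3 with a log2 ratio above 0 (median 0.04), and the median over all 116 detected genes that hold it was -0.02. None of the detected genes with an ERSE or a UPRE core passed 1.5-fold. As the lists were written from knowledge of these factors' targets, such shares describe the lists. Over all 280 detected genes with a CARE in a window, the median log2 ratio was -0.02. By the 1.5-fold rule 0 were higher and 5 lower (1.79%), where 0.212% of all detected genes were higher and 1.01% lower. Over all 359 detected genes with a CRE the median was 0, with 1 higher (0.279%), *Ppp1r15a*, and 5 lower (1.39%). The differences from the shares over all detected genes were not tested.

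**Figure D4:**
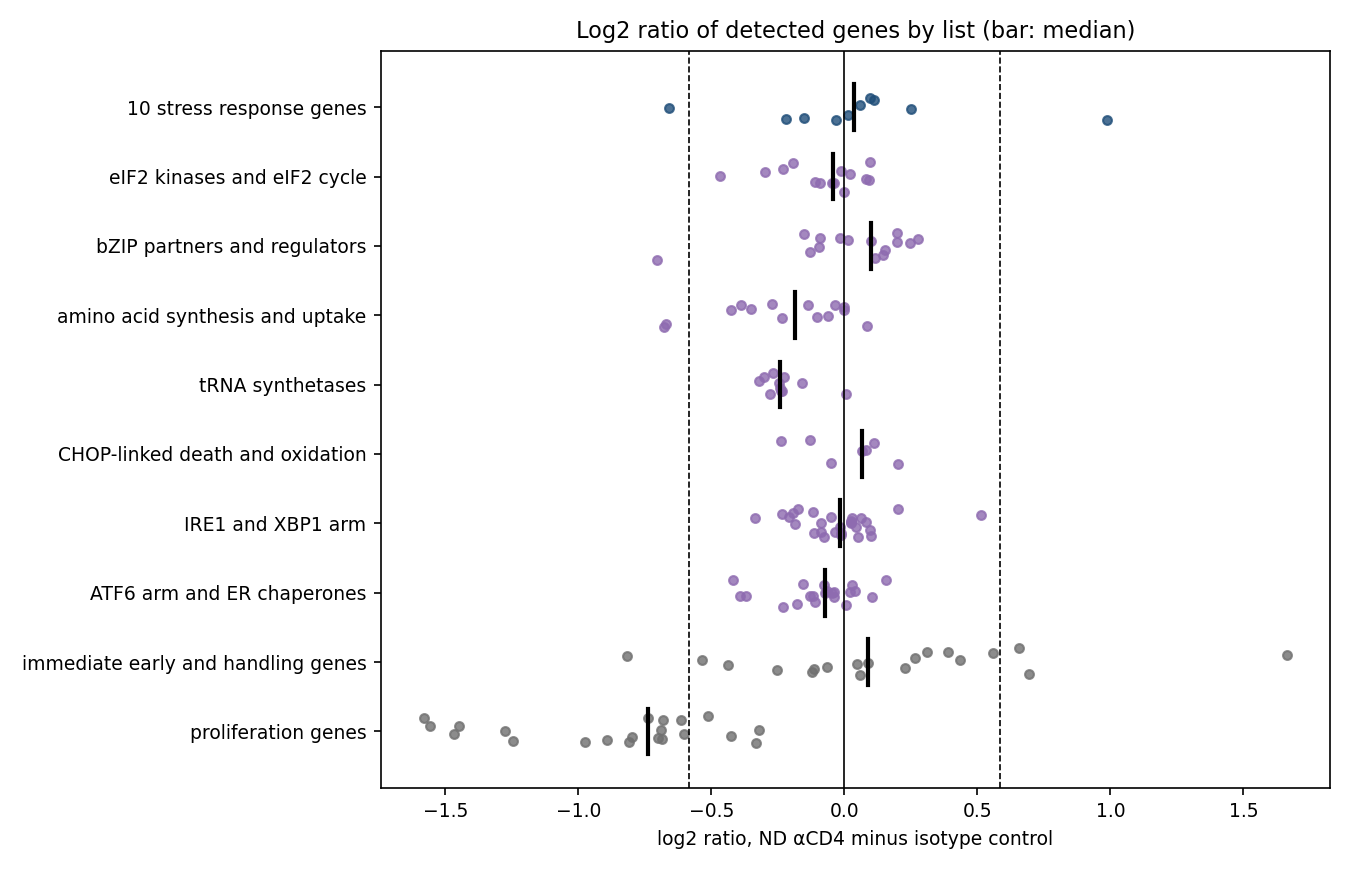
Log2 ratio (ND αCD4 minus isotype control, horizontal axis) of detected genes, grouped by list. Points are genes, short black bars are medians, and dashed lines mark the 1.5-fold rule. The stress response genes (blue) have a median of 0.04, the tRNA synthetase genes one of -0.24 and the proliferation genes one of -0.74. Points are spread vertically only to keep them apart.

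Other genes moved beside these. Of 19 detected immediate early and handling genes, which respond to stimulation but also to sorting, 12 had a log2 ratio above 0 and 7 below 0. By the 1.5-fold rule 3 were higher and 1 lower, where 0.212% of all detected genes were higher and 1.01% lower. The median of the list was 0.09. Its summed linear signal, to which the most abundant genes add most, was 54231 after ND αCD4 and 51636 after the isotype control Ab. *Jun*, an AP-1 subunit, had 11.78 after ND αCD4 and 10.11 after the isotype control Ab, a larger difference than that of *Ppp1r15a*, while *Hsph1*, a heat shock gene, was 1.76-fold lower. Of 21 detected proliferation genes, all 21 had a log2 ratio below 0. At least 1.5-fold lower were 17 of them (16 with values floored at background), where 1.01% of all detected genes were. Their median was -0.74, and their summed linear signal was 19218 after ND αCD4 and 31439 after the isotype control Ab. *Rrm2* and *Ccna2*, both of dividing cells, were at -1.58 and -1.56. The part of handling in the difference of *Ppp1r15a*, and of dividing cells in that of *Asns*, *Psat1* and *Slc7a5*, was not tested.

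T cell markers were high in both arrays. All 9 measured T cell genes were detected, with log2 ratios from -0.09 to 0.13, and *Cd4* had 13.48 after ND αCD4 and 13.38 after the isotype control Ab. Plasma cells and pancreatic acinar cells are rich in *Xbp1* and *Hspa5*. Of 11 measured genes of B and plasma cells, 9 were detected, with signals from 7.64 to 10.44 after ND αCD4 and from 7.35 to 10.34 after the isotype control Ab. Of these 9, 8 had a log2 ratio above 0, where 46.7% of all detected genes did. The largest log2 ratio was that of *Cd79a*, at 0.29, with a signal above background only after ND αCD4. Genes of plasma cells lay close to background and on both sides of 0. *Prdm1*, which T cells also express, was at 8.15 after ND αCD4 and 7.91 after the isotype control Ab, *Mzb1* at 8.13 after ND αCD4 and 7.93 after the isotype control Ab, and *Sdc1* at 7.90 after ND αCD4 and 8.08 after the isotype control Ab. Of 11 exocrine pancreas genes 7 were detected, none above 9.10 in either array. Genes of other lymphocytes were also measured. *Cd8a* had 10.39 after ND αCD4 and 9.67 after the isotype control Ab, a log2 ratio of 0.72 past the 1.5-fold rule, and *Cd8b1* had 11.83 after ND αCD4 and 11.38 after the isotype control Ab, a log2 ratio of 0.45. Both lay well above background in both arrays, although the sort was for CD4+ cells. Of 6 natural killer cell genes 3 were detected, and *Klrd1*, above background only after ND αCD4, was at least 1.46-fold higher. The other 2 detected, *Nkg7* and *Eomes*, lay far above background in both arrays. *Nkg7* had 11.34 after ND αCD4 and 11.25 after the isotype control Ab, a log2 ratio of 0.09. *Eomes* had 11.41 after ND αCD4 and 11.72 after the isotype control Ab, a log2 ratio of -0.31. The 3 below background in both arrays, *Ncr1*, *Klrk1* and *Klrb1c*, had log2 ratios of 0.74, 0.50 and 0.10. Of 9 macrophage and monocyte genes 4 were detected, all 4 with a log2 ratio above 0 and none past the rule. The part of such cells in the values of the stress response genes was not tested.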

How the data were processed

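PLN CD3+CD4+ T cells of BDC mice were profiled on 2 arrays, 1 per condition. The file deposited by the authors holds 1 log2 value for each probe set and array. Affymetrix Expression Console is named in the submitters' processing notes, with no normalization method given in the sources used here. A log2 scale was inferred from the values, which ran from 2.52 to 14.7 with medians of 8.15 in both arrays. The probe set identifiers belong to an earlier mouse gene ST array than the methods name. Arrays give no read depth, and precision is limited by their number.

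Of 35557 probe sets, 21789 had 1 symbol in the platform annotation and were used, 1621 had several and 12147 had none. The probe set with the highest mean stood for a gene, and all 10 members matched RefSeq by identifier. Differences were log2 ratios without a test. Members, lists, motifs and the naming rule were chosen with earlier results of these data known. The text names all members, genes past 1.5-fold in each pathway list (otherwise the 2 of largest log2 ratio in size), the sensors, up to 2 genes per other list and the 3 nearest to *Ppp1r15a*. *Ppp1r15b*, *Slc6a9*, *Mzb1*, *Sdc1*, *Nkg7*, *Eomes*, *Ncr1*, *Klrk1* and *Klrb1c* were added after their values were seen.

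Alternatives were 3 scalings (median centring, lowess with fraction 0.3 and 3 iterations, quantile), flooring at background, averaging a gene's probe sets, leaving out the detection filter, requiring detection in both arrays, the 99th percentile as background, and a stricter (2-fold) and a looser size rule (a 25% higher level or its inverse). The code was tested on simulated data, with differences planted only in genes of higher mean signal than *Asns*, *Atf5*, *Chac1* and *Sesn2*. That test therefore does not cover members of such low signal. Scripts ran in Python 3.11.15 with pandas 2.3.3, numpy 2.4.6, matplotlib 3.10.9 and statsmodels 0.14.6.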

Additional observations from a re-analysis of the deposited data

How the results depend on the processing

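The log2 ratios of the 10 members moved little under the 3 scalings, flooring at background and the mean of probe sets, by at most 0.03 in 50 values, and only *Atf5* changed sign, to -0.0014 under quantile normalization. *Ppp1r15a* ran from 0.99 to 1.00 and *Asns* from -0.67 to -0.66. The 1 member called higher and the 1 called lower became 0 and 0 with a 2-fold rule, as *Ppp1r15a* lay just short of it. With a 2-fold rule, 2 of all detected genes were higher and 25 lower, and 0 genes of the pathway lists passed. With the looser rule (25%) these were 199 higher, 514 lower and 12 genes of the pathway lists. Counts change under these rules by construction. Of 70 list medians under the alternatives, 1 moved by more than the SD between probe sets, that of the genes linked to CHOP, at -0.05 with the 99th percentile as background, under which fewer genes are detected. It was 0.02 with the mean of probe sets. Without the detection filter, the median of the amino acid genes was -0.10 and that of the other ATF4-linked regulators 0.06. That of the IRE1 and XBP1 arm was -0.00745 under lowess correction. No paired analysis was possible because each condition has 1 array. Low signal limits *Asns*, *Chac1* and *Sesn2*, which lay near background.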
